A study of Mus musculus with 29 samples.

Results

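The genes described here are 5 members of the system that draws neutrophils into tissue: the chemokines Cxcl1, Cxcl2 and Cxcl3 and the receptors Cxcr2 and Cxcr4. They were chosen by name, as 5 of the 27827 genes listed in any table. All 5 were listed for young brain (19704 genes) and aged brain (27514 genes), and 3 of the 5 for blood (16623 genes). The blood tables used here have no row for Cxcl1 or Cxcl3, so no blood value is given for either.

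Single cells of brain and blood from C57BL/6J mice were profiled by Drop-seq, a droplet method that tags each transcript with the barcode of its cell. Ischaemic stroke was modelled by occluding the middle cerebral artery for a time and letting blood return, and controls had sham surgery. The young animals, all males aged 8 to 10 weeks, were sampled on day 2 after sham (4 brain and 4 blood libraries), on day 2 after stroke (4 and 4) and on day 14 after stroke (4 and 3). The aged animals, 17 to 20 months old, were sampled for brain alone: the day 2 shams were 1 male and 1 female library, the day 2 strokes 1 male and 2 female, and the day 14 stroke a single female one. Each brain library pooled 4 to 5 hemispheres, digested with papain, and held sorted leukocytes with high CD45, microglia and endothelial cells. Each blood library pooled leukocytes of 2 mice. Actinomycin D, which blocks transcription, and Brilliant Blue G were present during isolation of all samples, and the brain samples also had AP-5. All shams are from day 2, so at day 14 stroke and the longer time since surgery cannot be told apart. The day 2 sham libraries served both stroke times, so those comparisons share controls.

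Cxcl1, Cxcl2 and Cxcl3 are secreted chemokines that bind Cxcr2, a G protein-coupled receptor that makes neutrophils move up a chemokine gradient. Their transcripts are induced through NF-kappa B by cytokines such as interleukin 1 and tumour necrosis factor, and macrophages, endothelial cells and neutrophils themselves can make them. Cxcr4 binds Cxcl12, holds neutrophils in bone marrow and is known to be higher on neutrophils that have aged in the circulation.

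A library held 1143 to 6328 cells and 819438 to 5855047 expected counts, and its median cell 320.8 to 1363.2. At most 7 cell barcodes were shared by any of the 406 pairs of libraries. All 37 pairs of libraries of 1 group differed by more than sampling noise (chi-square per degree of freedom 4.98 to 83.9). Levels below are CPM, a gene's share of the counts summed over 1 cell type of 1 library, scaled to 1000000 counts, with the cell types that the authors deposited. With sums over cells, fewer expressing cells and fewer transcripts per cell cannot be told apart.

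The 3 chemokine genes lie on chromosome 5 of GRCm38.p6 within 119838 bases, from Cxcl3 at 90786101 to 90788093 through Cxcl1 at 90891245 to 90893121 to Cxcl2 at 90903899 to 90905938. Cxcr2 (74153994 to 74161246) and Cxcr4 (128588199 to 128592299) lie on chromosome 1. These chemokine genes are not all adjacent, since Cxcl15 lies between Cxcl3 and Cxcl1. The last 120 bases before the start of each of the 3 genes, from RefSeq, are shown because they share a motif there. The capitals mark the 11 letters GGGAATTTCCC, the longest run of letters common to the 3 windows, which holds a form of the site bound by NF-kappa B. The stretches are on the plus strand.
Cxcl1, chr5:90891125-90891244: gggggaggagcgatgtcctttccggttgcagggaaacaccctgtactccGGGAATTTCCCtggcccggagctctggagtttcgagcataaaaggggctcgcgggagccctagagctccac
Cxcl2, chr5:90903779-90903898: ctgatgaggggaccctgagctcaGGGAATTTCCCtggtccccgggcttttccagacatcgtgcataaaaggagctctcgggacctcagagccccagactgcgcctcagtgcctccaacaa
Cxcl3, chr5:90785981-90786100: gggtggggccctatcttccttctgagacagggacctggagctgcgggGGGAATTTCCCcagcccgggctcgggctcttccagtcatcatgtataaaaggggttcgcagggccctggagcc
The motif begins 71 bases before the start of Cxcl1, 97 before Cxcl2 and 73 before Cxcl3. Searched on both strands over the 250 bases before each start, these letters or their reverse complement (GGGAAATTCCC) occur in 14 of 27025 genes (0.0518%). They were taken from the sequences themselves, and were not found in the windows of Cxcr2 and Cxcr4. A match is a description of letters and no evidence of binding.

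Across brain cell types of young mice with at least 20 cells in each of 2 or more libraries, the chemokines were highest in myeloid cells. At day 2 of stroke, Cxcl2 was at 12723 ± 2109 CPM in granulocytes, 3550.3 ± 540.3 in monocyte-derived cells and 1912 ± 1266 in border-associated macrophages (SD, n = 4 each). Every library of border-associated macrophages lay below every library of monocyte-derived cells, although their ranges of mean ± SD overlap. Dendritic cells followed with 118 ± 42.8 CPM and microglia with 79.4 ± 114, within each other's spread. The microglial mean rests largely on replicate 3, which held 58 microglia. Cxcl2 was at 0 in all 4 endothelial libraries. Mean Cxcl3 had the same order at its head, with 968 ± 258 CPM in granulocytes, 125 ± 50.4 in monocyte-derived cells and 42.4 ± 52.6 in border-associated macrophages. The last rests on 7.2 counts, and its libraries (0 to 115 CPM) overlap those of monocyte-derived cells (62.5 to 182). For Cxcl1 the order at day 2 was border-associated macrophages at 239 ± 157 CPM, monocyte-derived cells at 229 ± 53.9 and granulocytes at 187 ± 123, which do not differ beyond their spread. Endothelial cells came next with 40.7 ± 32.0 CPM of Cxcl1. In mural cells, of which 1 day 2 library held 20, Cxcl1 was at 315 CPM from 3.8 counts. No test was made between cell types of the same libraries.

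**Figure D1:**
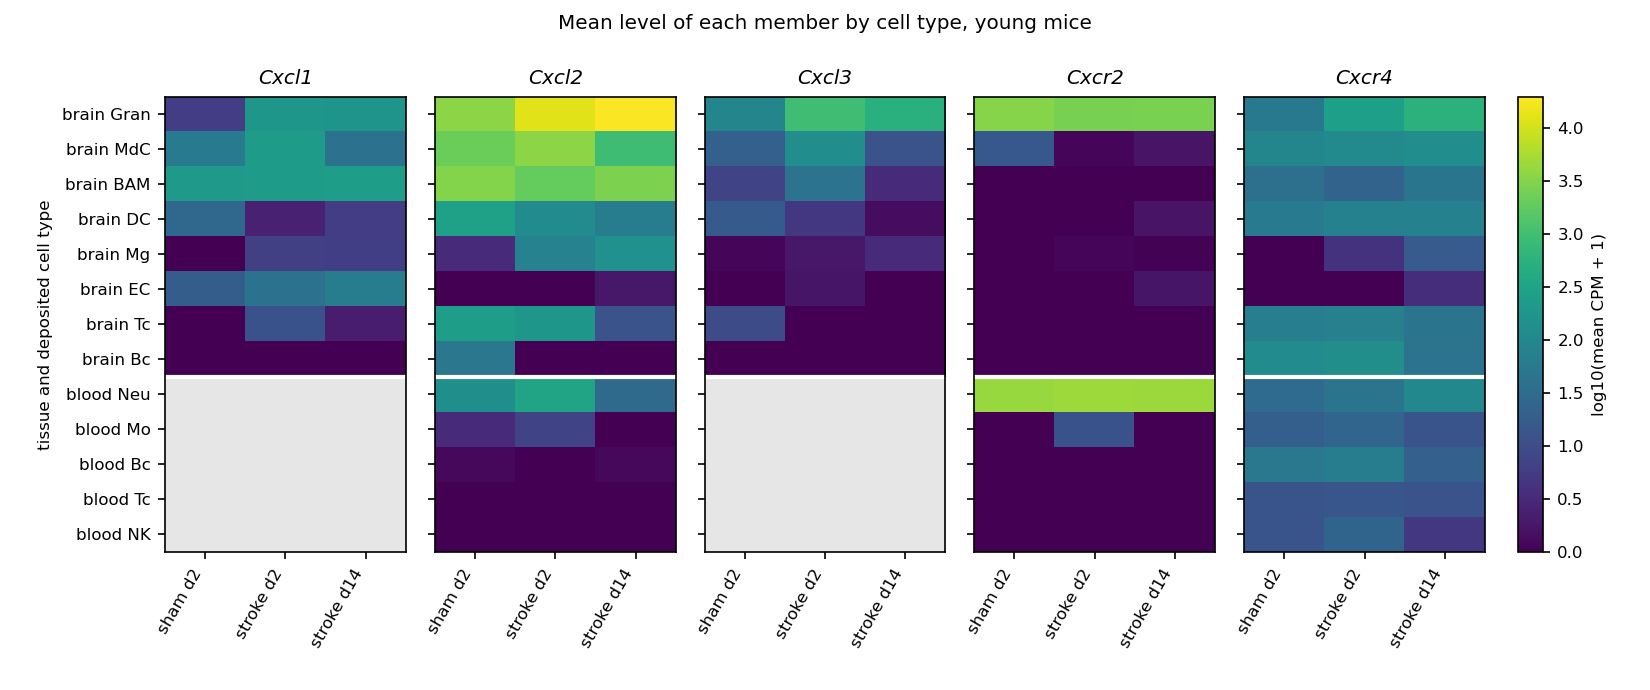
Mean level of each gene by deposited cell type (rows) and group (columns) in young mice, as log10(mean CPM + 1), over libraries with at least 20 cells of the type and at least 2 such libraries. Grey marks a gene that the blood tables used here do not list. Of the rows drawn, Cxcr2 is bright only in those of brain granulocytes (Gran) and blood neutrophils (Neu). Blood eosinophil and basophil cells are not drawn. Cxcl2 is bright in granulocytes, monocyte-derived cells (MdC) and border-associated macrophages (BAM). DC, dendritic cells; Mg, microglia; EC, endothelial cells; Tc, Bc and NK, T, B and NK cells; Mo, monocytes.

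The cell types that supplied each transcript differed between the groups, and so did the cells present. Monocyte-derived cells were 1.13% to 2.86% of cells in young sham libraries and 32.7% to 63.1% at day 2, and a cell of this type held a mean of 1.53 Cxcl2 counts in sham and 4.46 at day 2. The part of each in the shares was not tested. In sham, granulocytes gave a mean of 39% of a library's Cxcl2 counts although they were 3.47% of cells, border-associated macrophages 37.6% and monocyte-derived cells 19.6%. At day 2, monocyte-derived cells gave 90.1% and granulocytes 6.55%. At day 14 granulocytes gave 36.4% (10.9% to 57.6% by library) and monocyte-derived cells 45.5% (28.4% to 62.1%), which overlap. Of the Cxcl3 counts at day 2, 78.2% to 91.4% came from monocyte-derived cells. At day 14 the libraries differed widely, with 8.6% to 86.9% of Cxcl3 from granulocytes and 6.05% to 80.7% from monocyte-derived cells. The whole-library level of Cxcl2 was 145 to 522 CPM in sham, 1725 to 2607 at day 2 and 272 to 857 at day 14. The cells had been sorted, which can set shares of cells.

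**Figure D2:**
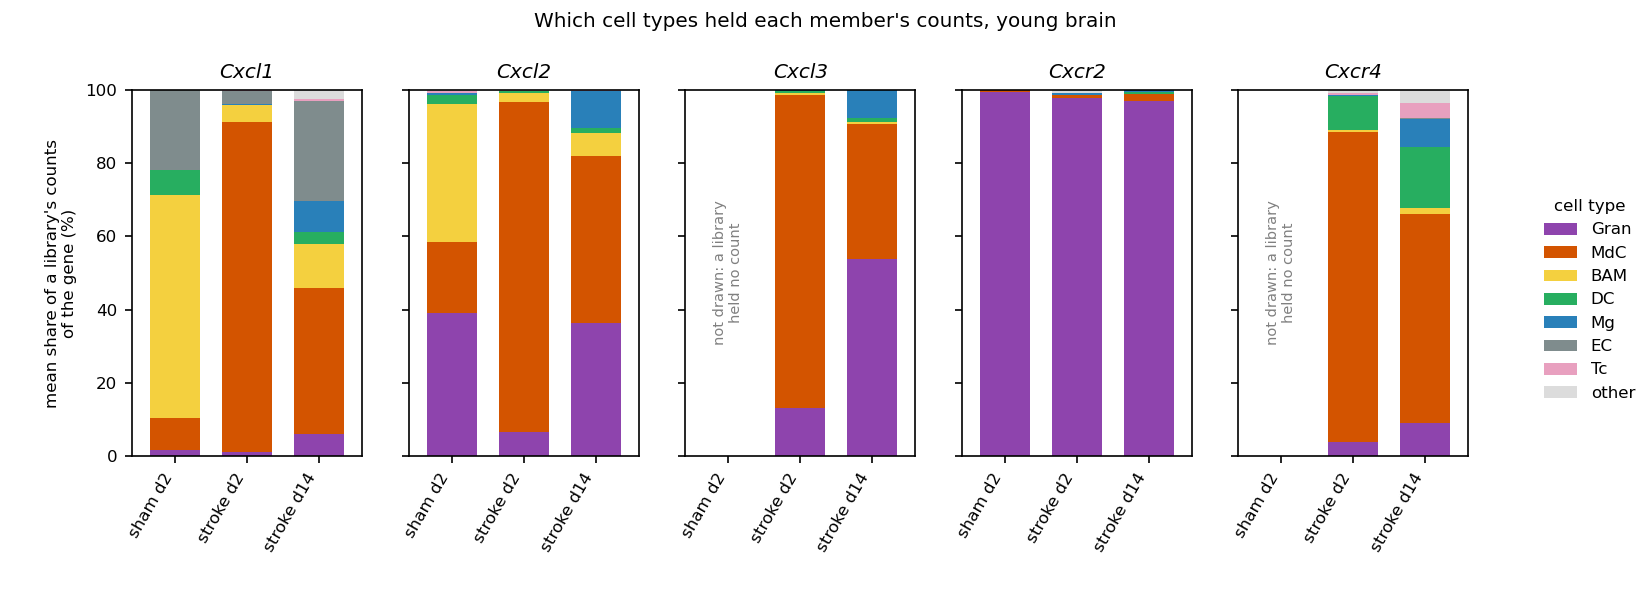
Mean share of a library's counts of each gene (vertical axis, percent) that came from each deposited cell type, in young brain (n = 4 libraries per bar). Cxcr2 came almost wholly from granulocytes in each group, while most Cxcl1, Cxcl2 and Cxcl3 at day 2 came from monocyte-derived cells. Sham bars of Cxcl3 and Cxcr4 are not drawn because 1 or more libraries held no count.

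Granulocytes of the brain, which carried neutrophil markers (below), had more Cxcl2 and Cxcl3 after stroke at both times. The 4 sham libraries had 3904, 3056, 5022 and 2100.2 CPM of Cxcl2 (replicates 1 to 4). At day 2 the libraries had 12337, 14573, 9905 and 14077 CPM, and at day 14 they had 23627, 18734, 11002 and 21777. Every stroke library was above every sham library. Cxcl2 rose by 1.68 ± 0.34 on the log2 scale at day 2 (SE, edgeR quasi-likelihood test, adjusted p = 0.00475) and by 2.04 ± 0.35 at day 14 (adjusted p = 2.51e-04). Day 14 and day 2 overlapped and did not pass the test against each other (0.36 ± 0.33, adjusted p = 0.631). In counts, a granulocyte held a mean of 2 ± 0.809 Cxcl2 transcripts in sham, 6.2 ± 2.24 at day 2 and 7.22 ± 1.36 at day 14. With no filter on low counts, both calls were lost (adjusted p = 0.391 and 0.054).

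Cxcl3 in granulocytes was at 218, 34.1, 113 and 0 CPM in the sham libraries, and at 1307, 889, 687 and 991 CPM at day 2. The groups do not overlap, and Cxcl3 rose by 3.22 ± 0.61 (adjusted p = 0.00261). At day 14 the libraries had 189.8, 624, 401 and 954 CPM, and the lowest fell within the sham range. Cxcl3 rose by 2.21 ± 0.62 at day 14 (adjusted p = 0.0137), but without sham replicate 2 or day 14 replicate 4 the adjusted p was 0.063 and 0.0756. Of the 4 members tested, 2 were called at day 2 (8.35% of the 994 genes tested were called) and 3 at day 14 (26.1% called), the other being Cxcr4. DESeq2, which also tested Cxcl1, called 3 and 4 members, the same ones and Cxcl1. The percentages above are edgeR's, and the share of all genes that DESeq2 called is not given here. Between day 14 and day 2, edgeR and DESeq2 called 0 of the 4 (0 at an unadjusted p under 0.05), where edgeR called 4.23% of genes.

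Cxcl1 was too low in granulocytes of young mice to enter the edgeR test. The 4 sham libraries held 1.4 expected counts of Cxcl1 in total, the day 2 libraries 24.7 and the day 14 libraries 14.0. Pooled over libraries, the level at day 2 was 27.2-fold that of sham in expected counts. From counts rounded to 25 and 1 the ratio was 38.6, with a 95% interval of counting error of 6.32 to 1580. By library, Cxcl1 was at 348, 219, 91.1 and 89.8 CPM at day 2 and at 94.7, 416, 31.6 and 129 at day 14, against 15.7 or less in sham. Every day 2 and day 14 library was above every sham library. DESeq2, which keeps more low genes, called Cxcl1 at day 2 (4.35 ± 1.23, adjusted p = 0.0162) and at day 14 (3.75 ± 1.26, adjusted p = 0.0288). In edgeR with no filter the adjusted p was 0.0113 and 0.0748. Fits that left out 1 library and kept the gene gave 0.0212 to 0.0738 at day 2, not called without sham replicate 2, 3 or 4. At day 14 they gave 0.0119 to 0.0821, and dropping any of sham replicates 2, 3 and 4, or replicate 4 of day 14, ended the call.

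Marker genes of the granulocytes moved with the groups. The summed level of 6 neutrophil markers (S100a8, S100a9, Csf3r, Retnlg, Mmp9 and Ly6g) was 219399.6 to 288180.2 CPM in young sham, 110666 to 202456 at day 2 and 52258 to 66366 at day 14. The summed level of 5 genes of immature neutrophils, among them Camp and Ltf, was 13131 to 30102 in sham, 1556 to 3403 at day 2 and 77.4 to 5440.3 at day 14. Microglial markers summed to 110.3 to 402 CPM in sham, 79.3 to 643 at day 2 and 347 to 599 at day 14. Monocyte or macrophage markers summed to 494 to 1348, 80.4 to 517 and 268 to 735. The part of these shifts in the chemokine results was not tested. Granulocytes were few, with 83 to 169 cells per sham library, 53 to 148 at day 2 and 29 to 153 at day 14.

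**Figure D3:**
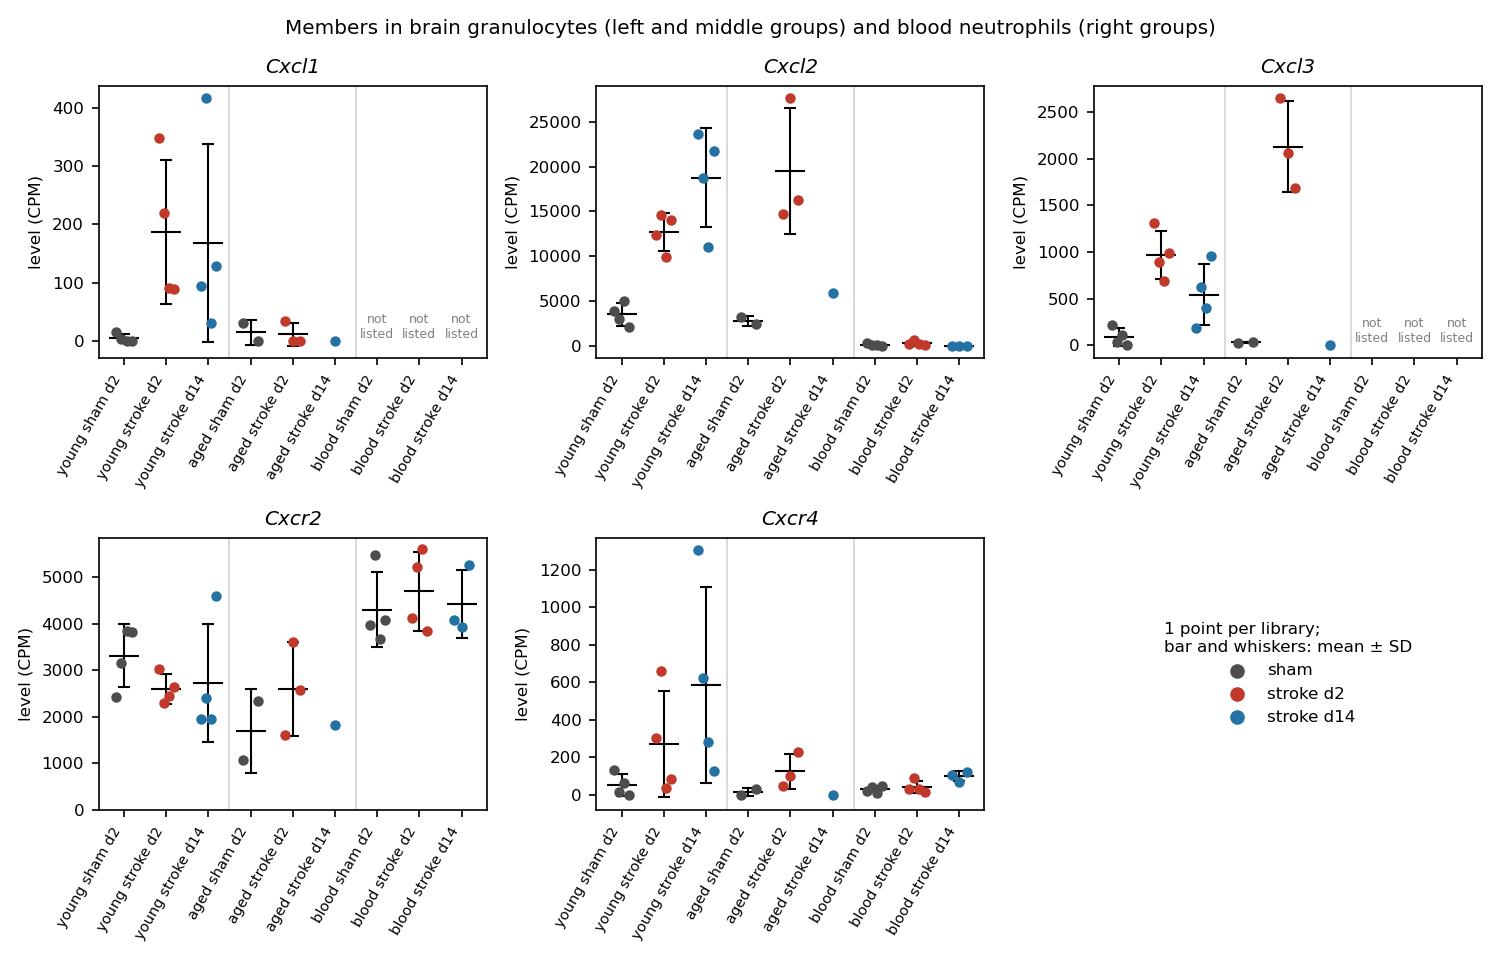
Level of each gene (CPM, 1 point per library, mean ± SD) in brain granulocytes of young and aged mice and in blood neutrophils. All 4 young stroke libraries at each time lie above the sham libraries for Cxcl2, while Cxcr2 overlaps between groups.

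Monocyte-derived cells, which enter the brain from blood after stroke, had less of the 3 chemokines at day 14 than at day 2. Cxcl1 was at 8.74, 117, 0 and 95.9 CPM in sham (9.5 counts in total), 194, 179.7, 245 and 298 at day 2 and 57.2, 17, 13.4 and 76.4 at day 14. Day 2 lay above both other groups without overlap. Cxcl1 rose at day 2 against sham by 2.72 ± 0.76 (adjusted p = 0.0451), the 1 member called of 4 tested, where 6.71% of 8080 genes were called. The call was lost with library size in place of TMM (adjusted p = 0.114) and in 6 of 8 fits that left out 1 library: without sham replicate 1, 3 or 4 or day 2 replicate 1, 3 or 4 the adjusted p was 0.064 to 0.177.

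Cxcl2 in monocyte-derived cells was at 2453, 3070.1, 848 and 2412 CPM in sham and at 3215, 3336, 3293 and 4357 at day 2. The groups do not overlap, but the difference of 1.18 ± 0.39 did not pass the test (adjusted p = 0.0891, and 0.0355 with no filter on low counts). At day 14 it was at 1395, 752, 589 and 939 CPM, below every day 2 library. Cxcl3 was at 80.3 CPM in sham replicate 1 and 0 in the other 3, at 112, 142, 62.5 and 182 at day 2 and at 2.44 to 21.5 at day 14, below every day 2 library. Its difference between day 2 and sham was 2.31 ± 0.80 (adjusted p = 0.103). It passed with no filter on low counts (0.033) and without sham replicate 1 (0.0432), the 1 sham library that held Cxcl3.

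Between day 14 and day 2, all 3 chemokines fell in monocyte-derived cells: Cxcl1 by 2.57 ± 0.56 (adjusted p = 0.0289), Cxcl2 by 2.01 ± 0.40 (adjusted p = 0.0158) and Cxcl3 by 3.44 ± 0.64 on the log2 scale (adjusted p = 0.0121). These are 3 of 4 members tested, where 1.79% of genes were called in either direction and 0.965% as lower. With the replicate block, which pairs same-numbered libraries, the 145 genes called became 469 and the 3 members were still called. The fits that left out 1 library had no such block, so they do not show how the paired calls would hold. Without day 2 replicate 4, none of the 3 calls held (adjusted p = 0.12, 0.0648 and 0.0528), and without day 14 replicate 2 only that of Cxcl3 did. That of Cxcl1 was also lost when replicate 1 or 3 of either day was left out (adjusted p = 0.0641 to 0.0874), and that of Cxcl2 without day 14 replicate 4 (0.0614). At day 14 against sham edgeR and DESeq2 called 0 of 4 members (0 at an unadjusted p under 0.05), where edgeR called 5.15% of genes. Across all genes tested, the median log2 change was 0.29 at day 2 and 0.28 at day 14 against sham, so folds against sham are to be read relative to it. With DESeq2's scaling these medians were -0.39 and -0.17. The sham libraries held 43 to 99 monocyte-derived cells and the day 2 libraries 1468 to 2180. Markers of border-associated macrophages summed to 44.6 to 377 CPM in sham monocyte-derived cells, 195 to 625 at day 2 and 73.8 to 173 at day 14, neutrophil markers to 0 to 3387, 114 to 248 and 29 to 116, and immature neutrophil markers to 3529 to 4147, 1422 to 3526 and 273 to 803. In sham the immature neutrophil list stayed at 3529 CPM or more, although the neutrophil list was at 0 in its lowest library. Which genes gave that sum is not shown here, so it is not read as immature neutrophils. The part of these markers in the result was not tested.

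In microglia, the resident macrophages of the brain, Cxcl2 was low in sham and higher at day 14. It was at 2.72, 0, 7.03 and 0 CPM in sham, at 74.4, 1.44, 242 and 0 at day 2 and at 366, 62.5, 78.3 and 77.1 at day 14. All day 14 libraries were above all sham libraries, and Cxcl2 rose by 6.53 ± 1.44 (adjusted p = 0.00843), the 1 member tested, where 15.2% of genes were called. At day 2 the difference of 4.02 ± 1.53 did not pass (adjusted p = 0.0589), where 31.4% of genes were called. It passed without day 2 replicate 2 (0.0385) or 4 (0.0253) and with no filter (0.0456), but without day 2 replicate 1 the difference was 1.29 (0.709). Cxcl1 and Cxcr4 were too low in microglia for edgeR's filter, and DESeq2 called both at day 14 (adjusted p = 0.0451 and 0.019). The share of all genes that DESeq2 called there is not given. Both members were at 0 in the 4 sham libraries. At day 14 Cxcl1 was at 13.4, 0, 4.49 and 3.21 CPM and Cxcr4 at 45.2, 10.9, 7.69 and 0. The highest day 2 library, replicate 3, held 58 microglia, and their summed microglial markers were 817 CPM against a group median of 12496. Monocyte or macrophage markers in microglia summed to 24.3 CPM or less in sham and 31.1 to 161 at day 14, and their part was not tested. In endothelial cells of the day 14 libraries Cxcl2 was at 3.55 CPM or less.

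Border-associated macrophages, which line vessels and meninges, held Cxcl1 and Cxcl2 in sham as well. Cxcl2 was at 2012, 3450.1, 4517 and 2763 CPM in sham, 892, 761, 2793 and 3204 at day 2 and 7517, 237, 1495 and 2032 at day 14. The groups overlap, and neither Cxcl1 nor Cxcl2 was called at day 2 (2.67% of genes called) or at day 14 (0.0762% called). Endothelial Cxcl1 was at 17.7 ± 12.4 CPM in sham, 40.7 ± 32.0 at day 2 and 63.7 ± 50.6 at day 14. It passed no test (1.27 ± 0.72, adjusted p = 0.245, and 1.73 ± 0.74, adjusted p = 0.782), where 13.3% and 0% of genes were called.

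Aged mice showed the rise of Cxcl2 and Cxcl3 at day 2 as well. Cxcl2 in aged granulocytes was at 3182 CPM in the male sham and 2428 in the female sham, and at 14693 (male), 27613 and 16259 (females) after stroke. It rose by 2.53 ± 0.47 (adjusted p = 0.00467), but with either sham library left out the adjusted p was 0.134 or 0.155. Cxcl3 was at 30.4 and 32.4 CPM in sham, from 2 counts in total, and at 2648, 2062 and 1684 after stroke. The edgeR adjusted p for Cxcl3 was 0.00157 (up to 0.0482 in the fits that left out 1 library). The pooled level of Cxcl3 was 73.5-fold that of sham, with a 95% counting interval of 20.2 to 609. Of the 5 members, 2 were called, where 3.14% of 1401 genes were. The 1 aged library of day 14 held 21 granulocytes, with 5955 CPM of Cxcl2 and none of Cxcl3.

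Aged monocyte-derived cells also had higher chemokine levels at day 2. Cxcl2 was at 1049 CPM in the male and 743 in the female sham library and at 9426 (male), 5121 and 4509.5 after stroke, a rise of 3.47 ± 0.59 (adjusted p = 0.00515). Cxcl1 was at 105 and 0 CPM in sham and at 635 (male), 257 and 396 after stroke (adjusted p = 0.0476), a pooled ratio of 8.72 with a 95% counting interval of 2.98 to 42.4 from 3 sham counts. Cxcl3 was at 35 and 0 CPM against 521, 207 and 339 (adjusted p = 0.0335), from 1 sham count. These were 3 of 5 members, where 2.56% of 8167 genes were called and the median of all genes was 0.44. All 3 calls were lost with either sham library left out (adjusted p = 0.0858 to 0.265), and those of Cxcl1 and Cxcl3 also without the male stroke library (0.0812 and 0.0611). That of Cxcl1 was lost as well without female stroke replicate 2 (0.0571), with library size in place of TMM (0.126) and with only the compared groups fitted (0.0802), and that of Cxcl3 with DESeq2 (0.057) and without TMM (0.0972).

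Between aged and young granulocytes at day 2 of stroke, edgeR called 0 of the 5 members (2 at an unadjusted p under 0.05). It called 0 of 1401 genes (0%, with 109 at an unadjusted p under 0.05), so it cannot show that the members were alike. Cxcl3 was at 2131 ± 485 CPM (n = 3) in aged and 968 ± 258 (n = 4) in young granulocytes, a difference of 1.25 ± 0.47 (adjusted p = 0.524). Cxcl1 was at 34.6 CPM or less in aged libraries and at 89.8 or more in young ones (-3.05 ± 1.18, adjusted p = 0.524). Pooled, its aged level was 0.138-fold the young one, with a 95% counting interval of 0.0267 to 0.453 from 3 and 25 counts. The difference between the stroke effects of aged and young mice was tested as an interaction for 5 members in granulocytes, 5 in monocyte-derived cells, Cxcl2 in microglia and Cxcl1 in endothelial cells. In edgeR 0 of these 12 passed (adjusted p = 0.775 or more, with 3 at an unadjusted p under 0.05). The interaction called 0% of all genes in each of these cell types, so this says nothing about the members in particular. Age and sex are mixed in these groups, since the young mice were male. The aged tables also listed more genes (27514) than the young ones (19704), and that difference is mixed with age too.

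In blood, Cxcl2 came almost wholly from neutrophils, with 94.5% to 98.9% of a library's counts as group means. Blood neutrophils had 293, 158, 57.2 and 36.8 CPM in sham, 235, 706, 255 and 84.3 at day 2 and 48.4, 5.55 and 36.5 at day 14. Sham and day 2 overlap, and day 14 lies below day 2. At day 2 against sham Cxcl2 did not pass (0.95 ± 0.58, adjusted p = 0.997), and edgeR called 0 of 4944 genes (0%, with 209 at an unadjusted p under 0.05). With no filter on low counts Cxcl2 passed (0.91 ± 0.23, adjusted p = 0.029). Cxcl2 fell by 3.70 ± 0.83 from day 2 to day 14 (adjusted p = 0.0179), the 1 of 3 members called, where 4.69% of genes were called in either direction and 3.3% as lower. With any of the 3 day 14 libraries left out the adjusted p was 0.0524 to 0.0826. Against sham at day 14 the difference was -2.75 ± 0.83 (adjusted p = 0.0641), and edgeR and DESeq2 called 0 of 3 members (2 at an unadjusted p under 0.05), where edgeR called 5.99% of genes. It passed with only the 2 groups fitted (0.0497), with no filter (1.25e-16) and without sham replicate 3 (0.0371) or 4 (0.0337). With no filter the day 14 difference was -2.85 ± 0.32. As at day 2, its size barely moved while its SE fell, although the libraries and their spread were the same. Why the SE fell was not tested, so these p-values with no filter are not read as stronger results. Blood monocytes had 15.5 CPM of Cxcl2 or less in every library.

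Cxcr2, the receptor of the 3 chemokines, marked neutrophils in both tissues. Granulocytes gave 96.9% to 99.5% of the Cxcr2 counts of young brain libraries, and blood neutrophils 99.3% to 99.9%, as group means. Brain granulocytes had 2423, 3166, 3849.7 and 3831 CPM in sham, 3036, 2287, 2451 and 2650.0 at day 2 and 1946, 2394, 1959 and 4605 at day 14. The groups overlap, and Cxcr2 was not called at day 2 (-0.52 ± 0.33, adjusted p = 0.383) or day 14 (-0.65 ± 0.33, adjusted p = 0.167). Without day 14 replicate 4, the highest library, Cxcr2 passed as lower (-1.12 ± 0.33, adjusted p = 0.0194). In aged granulocytes Cxcr2 was at 1062 (male) and 2332 (female) CPM in sham and 1608 (male), 3617 and 2574 after stroke at day 2.

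Blood neutrophils had 3972, 5481, 3663 and 4089.8 CPM of Cxcr2 in sham, 4132, 5215, 5614 and 3839.7 at day 2 and 4077, 3930.5 and 5269 at day 14. These groups overlap, and Cxcr2 passed no edgeR test in blood. DESeq2 called Cxcr2 lower at day 14 than at day 2 (adjusted p = 0.0495). The blood eosinophil and basophil cells had 399 to 1470 CPM as group means, and B cells, T cells and NK cells of blood had none.

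Cxcr4 was spread over more cell types. At day 2 in young brain, monocyte-derived cells gave 84.6% of its counts, dendritic cells 9.29% and granulocytes 3.96%. In blood, B cells gave 46.6% to 59.9% in sham and neutrophils 22.1% to 42.7%. At day 14 neutrophils gave 36.5% to 62.3% and B cells 20.7% to 47%, which overlap. In brain granulocytes Cxcr4 was at 134, 17, 63.9 and 0 CPM in sham, 305, 659, 37.1 and 83.4 at day 2 and 1305, 624, 284 and 128 at day 14. The sham and day 14 ranges overlap, since the lowest day 14 library was below the highest sham library, and Cxcr4 rose at day 14 by 2.94 ± 0.89 (adjusted p = 0.0195). That call rests on 13.9 counts in sham and 65.4 at day 14, and was lost without sham replicate 2 (adjusted p = 0.0677), sham replicate 4 (0.0515) or day 14 replicate 1 (0.11). At day 2 Cxcr4 did not pass (1.85 ± 0.95, adjusted p = 0.272).

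Blood neutrophils had 21.7, 43.7, 13 and 47.4 CPM of Cxcr4 in sham, 34.9, 90.4, 31.4 and 17.6 at day 2 and 109, 70.2 and 124 at day 14. All day 14 libraries lay above all sham libraries, but the difference of 1.49 ± 0.43 missed the threshold (adjusted p = 0.0543). It passed with only the 2 groups fitted (adjusted p = 0.0318), with library size in place of TMM (0.039), with no filter (0.00115), without the cells of highest doublet score (0.0498) and without sham replicate 4 (0.0374). In monocyte-derived cells Cxcr4 was at 92.6 ± 118 CPM in sham, 108 ± 70.5 at day 2 and 128 ± 82.5 at day 14, and passed no test there. By library, sham held 0 to 0.301 Cxcr4 counts per monocyte-derived cell, and the highest library carried much of the mean of 0.0899. In blood B cells Cxcr4 was at 51.8 ± 31.5 CPM in sham (n = 4), 65.3 ± 48.8 at day 2 (n = 4) and 20.2 ± 3.47 at day 14 (n = 3). The difference at day 14 (-1.36 ± 0.47) did not pass the edgeR test (adjusted p = 1, where 0.0114% of genes were called). Dendritic cells of brain had 57.6 to 76.9 CPM as group means and microglia 0 to 16 CPM.

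Brain granulocytes were compared with blood neutrophils at day 2 of stroke. The tissues were isolated by different procedures, so tissue and procedure cannot be told apart. Of the 3 members listed in both, 2 were higher in brain, where 9.16% of 1976 genes were called in either direction and 6.58% as higher. Cxcl2 was at 12723 ± 2109 CPM in brain and 320.1 ± 268 in blood, a difference of 5.37 ± 0.56 (adjusted p = 4.75e-06), with every brain library above every blood library. It held in all 14 alternatives tried (adjusted p at most 1.45e-04). Cxcr4 was at 271 ± 284 and 43.6 ± 32.1 CPM (2.23 ± 0.68, adjusted p = 0.0492), with overlap, and lost its call in 5 of the 10 alternatives in which it was tested, among them those without brain replicate 1 (0.123) or 2 (0.27). Cxcr2 was at 2606 ± 323 CPM in brain and 4700.4 ± 849 in blood, without overlap. It did not pass the edgeR test (-0.86 ± 0.31, adjusted p = 0.102), but passed with DESeq2 (2.57e-07) and with counts rounded up (0.0308).

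Monocyte-derived cells of brain against blood monocytes at day 2 gave the same direction for both members tested, where 24.7% of 7540 genes were called. Cxcl2 was at 3550.3 ± 540.3 CPM in brain and 6.6 ± 6.12 in blood (9.82 ± 0.52, adjusted p = 9.33e-07). Cxcr4 was at 108 ± 70.5 and 24.2 ± 23.9 CPM (2.81 ± 0.59, adjusted p = 0.00416), with overlapping libraries.

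**Figure D4:**
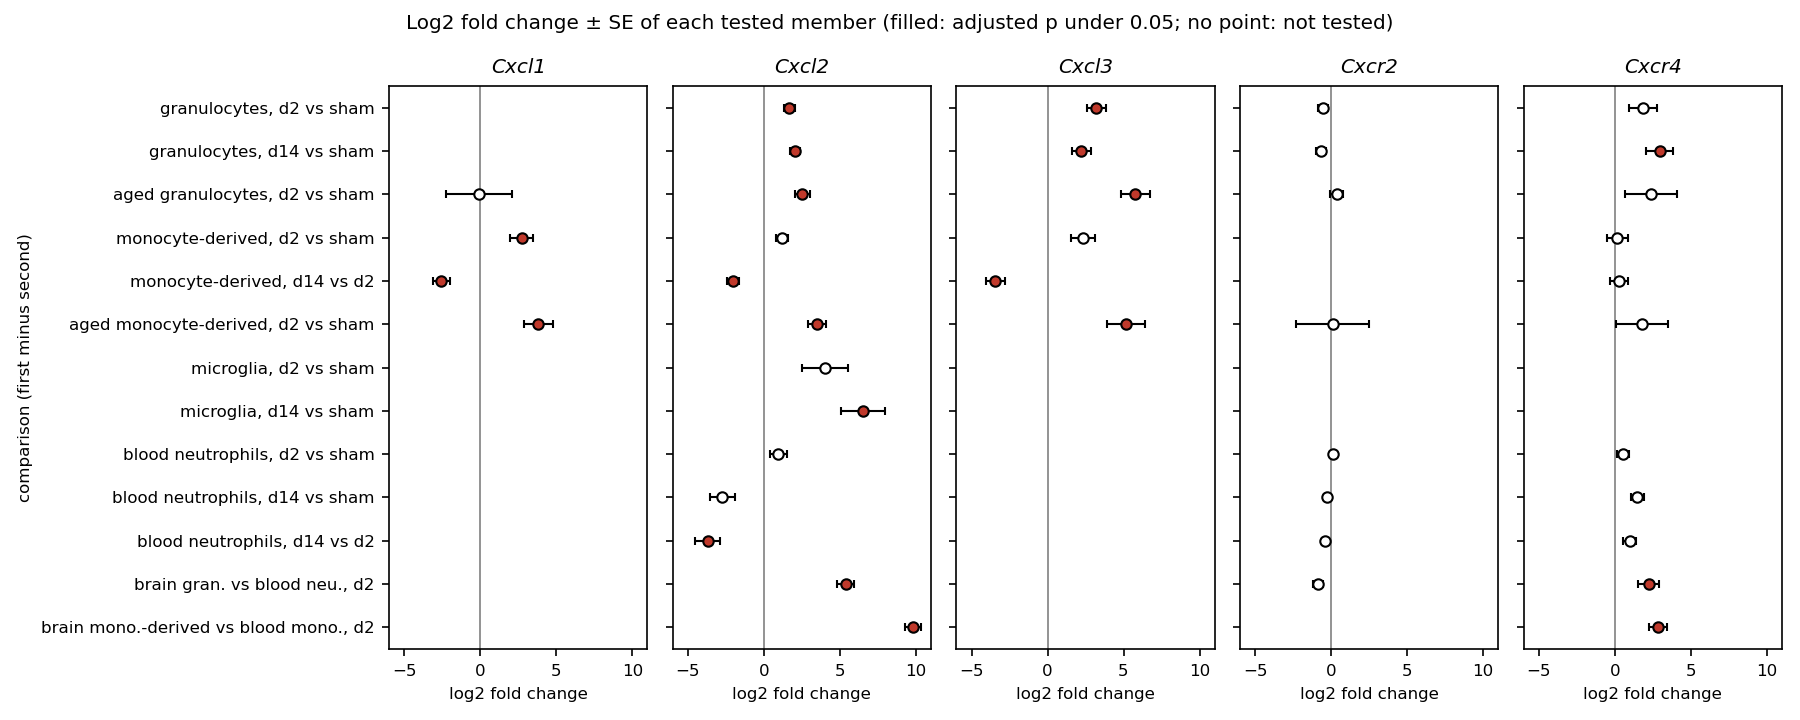
Log2 fold change (horizontal axis, first minus second group) with its SE for each gene in 13 of the comparisons, from edgeR. Filled points had an adjusted p under 0.05, and no point means that the gene was not tested there. The comparisons of day 2 and day 14 with sham share their sham libraries.

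The deposited annotation divides granulocytes into Gran1 to Gran6 and blood neutrophils into Neu1 to Neu6. These divisions were made from the same cells' genes, so levels between them are described without a test. In young sham Gran1 made up 81.7% ± 6.95 of granulocytes, at day 2 it made up 32.9% ± 12.5 and at day 14 5.04% ± 1.58 (SD, n = 4). Gran2 made up 49.4% ± 6.05 at day 2 and 60.3% ± 5.73 at day 14. Gran3 made up 9.44% ± 9.8 at day 2, from 2.7% to 24% by library, and 4.59% without replicate 2, in which it was 18 of 75 granulocytes. At day 14 it made up 26.7% ± 3.17, from 22.2% to 29.6%. Pooled over the libraries of 1 group, Cxcl2 at day 2 was at 4581 CPM in Gran1, 21522 in Gran2 and 26057 in Gran3, and at day 14 at 4895, 14279 and 24589.

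Within Gran1, Cxcl2 pooled over libraries of the young groups was 4157 CPM in sham, 4581 at day 2 and 4895 at day 14 (16 cells). By library Gran1 had 4447, 3753, 5421 and 2889 CPM in sham and 4013, 6075, 3119 and 5415 at day 2, which overlap. Within Gran2 it was 12732 CPM in sham (14 cells), 21522 at day 2 and 14279 at day 14. In aged mice Gran1 was at 4464 (male) and 2978 CPM in sham and at 12053 (male), 19265 and 16939 at day 2, without overlap. Cxcl3 in young Gran1 was 105 CPM in sham and 88.3 at day 2 (from 22.0 and 8.0 counts, and 63.8 to 146 and 51 to 147 with 1 library left out). In Gran2 it was 1688 at day 2 and 698 at day 14 (1423 to 1845 and 563 to 781).

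Cxcr2 had another order among the divisions. At day 2 it was at 2486 CPM in Gran1, 2945 in Gran2 and 672 in Gran3, and at day 14 at 2719, 3616 and 1005, so Gran3 had the lowest Cxcr2 and the highest Cxcl2 of these 3 at both times. With 1 library left out, Cxcr2 in Gran3 ranged from 447 to 804 at day 2 (without replicate 1 and 4) and from 619 to 1536 at day 14 (without replicate 4 and 3). In sham it was at 3835 CPM in Gran1, 3621 in Gran2 (14 cells) and 1834 in Gran4. Cxcr4 was too low for an order: its pooled values rest on 35.4 counts or fewer in any granulocyte division and group, and 1 library moved most of them by over 1.5 times. Neu3 made up 10.1% ± 14.8 of blood neutrophils in sham (SD, n = 4), from 0.967% to 32.2% by library, and 2.72% without replicate 4, in which it was 140 of 435 cells. At day 14 it made up 73.8% ± 9.2 (SD, n = 3), from 63.9% to 82%. Within Neu3, Cxcr4 was at 34.5 CPM in sham and 107 at day 14, from 8.6 and 90.3 counts. Without sham replicate 4 the sham value was 16, without sham replicate 1 it was 51.4, and with any 1 library left out the day 14 value was 97.4 to 126. Cxcl2 in Neu3 was at 67.4 CPM in sham and 27.4 at day 14, from 16.7 and 23 counts. With 1 library left out, the sham value ranged from 30.2 (without replicate 1) to 89.8 (without replicate 4) and the day 14 value from 11.2 (without replicate 1) to 42.3 (without replicate 2), and these ranges overlap.

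**Figure D5:**
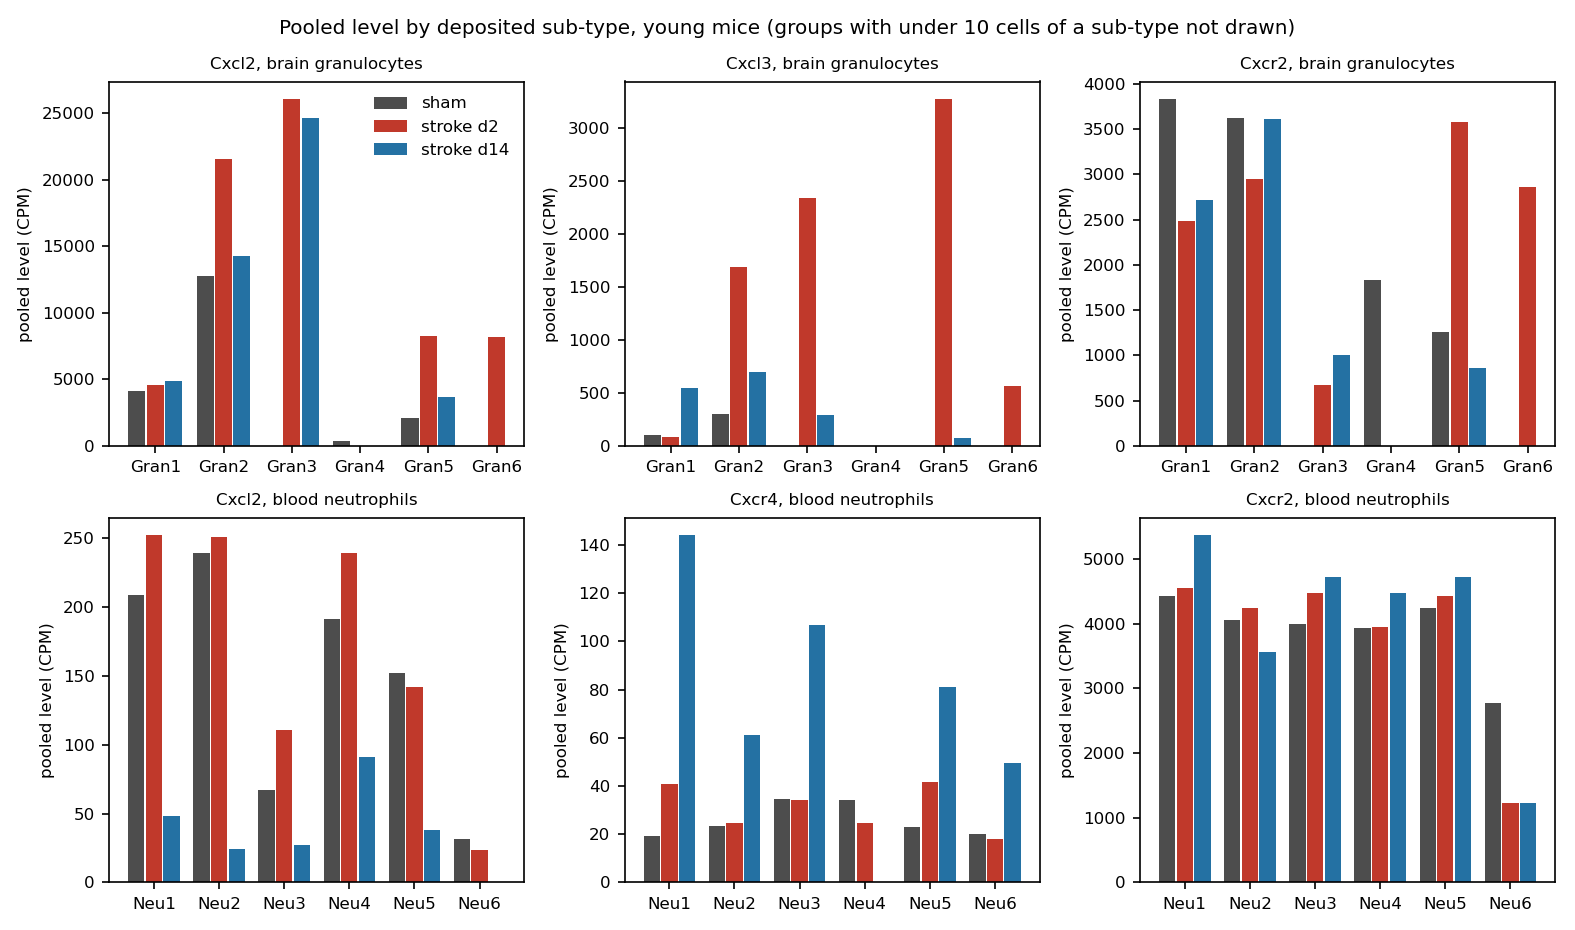
Level pooled over libraries (CPM, bars from 0) by deposited division of brain granulocytes (top) and blood neutrophils (bottom) in young mice, for groups with at least 10 cells. Cxcl2 in Gran1 was 4157 to 4895 CPM in the 3 groups and in Gran3 24589 to 26057 CPM in both stroke groups.

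Other genes of the system were counted from lists. Of 10 inducers and regulators of the chemokine transcripts, 5 were tested in young granulocytes. At day 2, where 8.35% of all genes were called, 3 rose: Tnf, the cytokine (570 ± 291 against 33.4 ± 20.3 CPM, 3.85 ± 0.61, adjusted p = 7.18e-04), Nfkbia, the NF-kappa B inhibitor that NF-kappa B induces (2.10 ± 0.32, adjusted p = 7.18e-04), and Zfp36, which destabilises cytokine transcripts (1.27 ± 0.35, adjusted p = 0.0268). With no filter on low counts, Nfkbia and Zfp36 were not called (adjusted p = 0.0692 and 0.651). Zfp36 was not called either without sham replicate 2, 3 or 4 or stroke replicate 1, 3 or 4 (adjusted p 0.053 to 0.168). At day 14, where 26.1% of all genes were called, 4 rose, the fourth being Il1b, interleukin 1 beta (22801 ± 7235 against 7169 ± 3832 CPM, 1.33 ± 0.38, adjusted p = 0.0157). Il1b was not called without sham replicate 1, 2 or 4 or stroke replicate 4 (adjusted p 0.0578 to 0.0734), and with no filter neither Il1b nor Zfp36 was (adjusted p = 0.468 and 0.0927). In aged granulocytes 2 of 6 were called at day 2, Il1a and Nfkbia (3.14% of all genes called). Neither was called without the male sham library (adjusted p = 0.209 and 0.132) or without the female one (0.149 and 0.124). Il1a was not called without the cells of highest doublet score (0.0631), was not tested without stroke female replicate 1, and got no adjusted p from DESeq2. In brain granulocytes 4 of 5 were higher than in blood neutrophils (6.58% of all genes called as higher), but Il1b was not called with no filter (adjusted p = 0.467), without brain replicate 3 or 4 (0.13 and 0.144) or without blood replicate 4 (0.0524). No gene of this list was called in blood neutrophils by edgeR or DESeq2 (0 of 7 tested, with 1 to 3 at an unadjusted p under 0.05 in the 3 comparisons, where edgeR called 0%, 5.99% and 4.69% of all genes).

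Among 7 other receptors for chemoattractants and growth factors, all tested in granulocytes, 0 were called at day 2 by edgeR or DESeq2 (2 at an unadjusted p under 0.05), near the 8.35% of all genes called there. At day 14, 2 of the 7 were called, near the 26.1% of all genes called there. Ptafr, the receptor of platelet-activating factor, rose (999 ± 305 against 144 ± 74.9 CPM, 2.39 ± 0.41, adjusted p = 2.51e-04) and Fpr2, a formyl peptide receptor, fell by 1.64 ± 0.33 on the log2 scale (adjusted p = 0.00118, and 0.0517 with no filter on low counts). In blood neutrophils at day 14 (2 of 7 called, against 5.99% of genes) Ptafr rose as well (1.01 ± 0.18, adjusted p = 0.00531) and Fpr1, another formyl peptide receptor, fell by 1.07 ± 0.28 (adjusted p = 0.0303). Fpr1 was not called without TMM scaling (0.051) or without sham replicate 1 or 3 or stroke replicate 1 or 3 (0.0652 to 0.154). Between day 14 and day 2, edgeR called Ptafr, Fpr1 and Cxcr1 in blood neutrophils (adjusted p = 0.00823, 0.0447 and 0.0439), where 4.69% of genes were called. The calls of Fpr1 and Cxcr1 were each lost in 5 of 7 fits that left out 1 library. In brain granulocytes it called Fpr1 and Fpr2 (0.0391 and 0.0466), where 4.23% of genes were, lost in 6 and 8 of 8 such fits. Of 11 genes of receptor signalling and desensitisation, 5 were tested in granulocytes and 1 was called at day 14, a share below that 26.1%: Gnai2, a G protein subunit, fell (adjusted p = 0.0441), a call lost with no filter (0.306), without TMM scaling (0.314) and without any 1 library other than sham replicate 3 (0.0531 to 0.0966). In blood neutrophils 1 of 11 was called at day 14, where 5.99% of genes were: Grk6, a receptor kinase, fell (adjusted p = 0.0138), a call lost without TMM scaling (0.0955) and without sham replicate 1 or stroke replicate 1 or 3 (0.0504 to 0.0767).

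Of 9 other ligands and receptors, 4 were tested in endothelial cells, and 3 were called at day 2, where 13.3% of all genes were. Ackr1, a receptor that carries chemokines across endothelium, rose (354 ± 76.1 against 40.5 ± 51.2 CPM, 2.83 ± 0.70, adjusted p = 0.0161 by edgeR). DESeq2 called the other 2 of these 3 genes and not Ackr1 (adjusted p = 0.0914), and edgeR did not call it without sham replicate 3 or 4 (0.0645 and 0.0575). Mif, a cytokine that can bind Cxcr2 and Cxcr4, rose (1.52 ± 0.28, adjusted p = 0.00374). Cxcl12, the ligand of Cxcr4, fell from 3099 ± 855 to 1196 ± 168 CPM (-1.28 ± 0.26, adjusted p = 0.00509), and in aged mice from 3396 ± 316 to 1102 ± 214 (-1.58 ± 0.31, adjusted p = 0.0288, where 0.606% of genes were called). Leaving out any 1 of the 5 aged libraries ended that aged call (adjusted p 0.0692 to 0.208). In endothelial cells at day 14 edgeR and DESeq2 called 0 of the 4 (1 at an unadjusted p under 0.05), where edgeR called 0% of all genes. In monocyte-derived cells both genes tested, Pf4 and Mif, were higher at day 2, where 6.71% of genes were called (adjusted p = 0.0148 and 0.00947), and Pf4 was not called without sham replicate 1, 2 or 3 (0.0557 to 0.0863).

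The genes most like each member were found by Pearson's r of log2(CPM + 1) over cell types and young groups, with a mean of at least 20 CPM. Cxcl2 was most like Nfkbiz (r = 0.89), Cd14 (0.83) and Il1b (0.83) over 47 points, and Cxcr2 most like Retnlg (0.96), Hdc (0.94) and Mmp9 (0.93). Cxcr4 was most like Stk17b (0.81), Neurl3 (0.78) and Pim1 (0.76). Over 27 brain points, Cxcl1 was most like Ptgs2 (0.81), Ninj1 (0.79) and Myof (0.79), and Cxcl3 like Clec4e (0.90), Pilrb2 (0.90) and Msrb1 (0.89). Points of 1 group share libraries, so these values describe and test nothing.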

How the data were processed

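The authors deposited Drop-seq values as an expected count per gene and cell, which need not be whole, with cell types at 2 levels. They also deposited the percent of each cell's counts from mitochondrial genes, per the file headers, which was not tested. They used mm10 and Seurat, per the submitters' processing notes; how the counts became fractional is not given in the sources used here (0.32% to 4.81% of values were whole), and values near 0 were read as 0. Counts were summed per library and parent type (at least 20 cells) and rounded. Groups were compared by edgeR 4.0.16 (quasi-likelihood, TMM, filterByExpr, two-sided), Benjamini-Hochberg adjustment ran over all genes tested, and calls were made at 0.05. The fit was also run on counts simulated with the same spread for every gene, a setting simpler than these libraries. No result here rests on it. Alternatives were DESeq2 1.42.0, no filter, no TMM, only the groups compared, counts rounded up, sex as covariate, a replicate block, each library left out, and, added after seeing the data, the 5% of cells with the highest doublet score (scanpy 1.11.5) left out. Replicate numbers come from the titles. For day 14 against day 2 in granulocytes, dendritic and monocyte-derived cells, same-numbered libraries deviated together (correlations 0.181 to 0.465, 0.191 to 0.739 and 0.268 to 0.758). The numbers were taken to pair them there, although pairs of unlike number reached 0.193, 0.358 and 0.528. Same-numbered microglial libraries correlated at 0.067 to 0.55 and were not counted as paired. Effects, adjusted p and results with 1 library left out, as printed for these comparisons, are from fits without the block. The block changed no member's call there. Each library is a pool of animals, so p-values measure the spread between pools. Intervals and floors cover counting error only. Named genes are the 5 members, some called genes of 4 lists, marker genes and the genes most like a member. Other called genes of the lists are not named. Members and lists were chosen with earlier results of these data known.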

Additional observations from a re-analysis of the deposited data

Results flagged for a closer look

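In 3 of 42 groups of 4 libraries tested for a single library far from the rest (chance alone gives about 5 percent), 1 library stood apart. Cxcl2 in microglia at day 14 was at 366 CPM in replicate 1 and at 62.5 to 78.3 CPM in the other libraries. Cxcl2 in monocyte-derived cells at day 2 was at 4357 CPM in replicate 4 and at 3215 to 3336 CPM in the others. Cxcr2 in brain granulocytes at day 14 was at 4605 CPM in replicate 4 and at 1946 to 2394 CPM in the others.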

How the results depend on the processing

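Expression was compared in 31 comparisons, and no member changed direction while called. Counts of called members moved as follows. In brain granulocytes at day 14 against sham, 3 were called, and leaving out 1 library gave 1 to 4. In aged granulocytes the range was 1 to 2 of 2. Brain granulocytes against blood neutrophils gave 1 (in place of 2) with library size without TMM, 1 without the cells of highest doublet score, and 1 to 2 with 1 library left out. Monocyte-derived cells at day 2 against sham gave 3 with no filter, 0 without TMM, 3 with the replicate number as a replicate block, and 0 to 1 with 1 library left out. Between day 14 and day 2 they gave 0 to 3, and in aged mice 1 without TMM and 0 to 3 with 1 library left out. Microglia at day 14 against sham gave 3 with DESeq2, 3 with no filter, 2 with counts rounded up and 1 to 2 with 1 library left out. At day 2 against sham they gave 1 with no filter, 1 with the replicate block and 0 to 1 with 1 library left out. Blood neutrophils at day 14 against day 2 gave 2 with DESeq2 and 0 to 1 with 1 library left out. At day 2 against sham they gave 1 with no filter. At day 14 against sham they gave 2 with no filter, 1 without TMM, 1 with the replicate block, 1 without the cells of highest doublet score, 2 with only the groups compared and 0 to 2 with 1 library left out. The cause was not tested. Calls over all genes follow for some of these settings. Where none is given, the counts cannot be read as particular to the members.

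Calls over all genes, with 1 library left out, ranged from 42 to 80 in granulocytes at day 2 (83 as reported), 15 to 55 between day 14 and day 2 (42), 5 to 66 in aged mice (44) and 119 to 216 against blood neutrophils (181). They ranged from 284 to 481 in monocyte-derived cells at day 2 (542), 246 to 349 at day 14 (416), 45 to 191 between the days (145) and 8 to 167 in aged mice (209). Microglia gave 2094 to 3120 at day 2 (3182) and 791 to 2573 at day 14 (1544), and blood neutrophils 83 to 359 at day 14 against sham (296) and 67 to 218 against day 2 (232). Endothelial cells at day 2 gave 320 to 991 (778), and 0 to 26 in aged mice (40), and border-associated macrophages at day 2 gave 2 to 52 (35). DESeq2 called 405 genes between brain granulocytes and blood neutrophils, 420 in monocyte-derived cells between the days and 133 in aged endothelial cells. With the replicate block, edgeR called 469 in monocyte-derived cells between the days. With no filter, granulocytes gave 45 at day 2, 25 between the days, 29 in aged mice and 706 against blood neutrophils (321 with counts rounded up), blood neutrophils 487 and 408 at day 14 and 32 at day 2, and aged monocyte-derived cells 326 (98 with only the compared groups, 107 without TMM).

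Without TMM, the share of calls that were higher went from 66.3% to 82.1% in granulocytes at day 2, from 49.8% to 76.2% at day 14, from 84.3% to 50.7% in monocyte-derived cells at day 2 (355 calls), from 90.4% to 47.7% in their aged counterparts, from 69.4% to 19.6% in microglia at day 14 (3425 calls), and in blood neutrophils at day 14 from 36.5% to 74.7% against sham and from 29.7% to 69.7% against day 2. With the replicate block, Cxcl2 and Cxcl3 passed in monocyte-derived cells at day 2 against sham (1.31, adjusted p = 0.0301, and 2.34, 0.0117), Cxcl2 in microglia at day 2 (3.67, 0.0408) and Cxcl2 in blood neutrophils at day 14 against sham (-2.95, 0.0113). Same-numbered libraries there correlated at -0.072 to 0.05, -0.294 to 0.068 and -0.089 to 0.127, so they share only a number. The replicate block moved no member's call elsewhere. Removing cells marked by Scrublet was not run, since it marked 0.225% of cells or fewer. Depth limits Cxcl1, Cxcl3 and Cxcr4 in granulocytes, where a floor of 3 counts is 25.6 to 58.3 CPM in a sham library.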
